A study of Mus musculus with 12 samples.

Results

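Proliferins are secreted glycoproteins of the prolactin family, encoded in the mouse by a group of near-identical genes. The genes described here are Prl2c2, Prl2c3, Prl2c4 and Prl2c5, which are 4 of the 23282 gene symbols counted in each library and were selected by symbol after their pattern over the 4 groups of the study had been seen. Their values are therefore given as a description, with standard errors and without p-values. Of the 4 genes, 3 passed the filter on low counts that left 12425 genes for testing, and Prl2c5 did not pass it.

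Proliferins are best known from trophoblast giant cells of the placenta, which release them into the maternal circulation. They act on endothelial cells and promote the growth of new vessels. They were first described in cultured mouse fibroblasts as messages that appear when resting cells are given serum or growth factors. Proliferins bind the cation-independent mannose 6-phosphate receptor, and their genes are known as targets of the transcription factor AP-1 and of the glucocorticoid receptor.

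RNA-seq was performed in C22 cells, a cloned mouse club cell line from the lung of transgenic mice carrying the H-2Kb-tsA58 immortalizing gene, in 4 groups of 3 libraries. Cells with the negative control (NC) and cells given siRNA against Pdcd5 (siPDCD5 in the labels, siPdcd5 here) were each measured untreated and after 24 h with 20 ng/ml TGF-β1, which was added to differentiated cells after 2 h without serum (NC + TGF-β1, siPdcd5 + TGF-β1). The labels record the 2 h without serum for the treated groups only, and nothing states whether untreated cells were also kept without serum. The part of serum withdrawal in the TGF-β1 comparisons was not tested. Values listed in the order of groups run from untreated NC to treated NC, then from untreated to treated knockdown cells. The comparisons asked how loss of Pdcd5, a gene known for its part in cell death, changed the response to TGF-β1. Nothing states whether the 3 libraries of a group came from separate cultures, so that p-values measure the spread between libraries, which may be technical.

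Each library held 12809857 to 17714828 counted reads, and 3 counts corresponded to 0.165 to 0.239 CPM (counts per 1000000 counts of the TMM-scaled library). Pdcd5 itself was at 65.1 to 73.5 CPM in the 6 NC libraries and at 20.0 to 26.3 CPM in the 6 knockdown libraries, with no overlap. The club cell label was not matched by the defining secretory markers, since Scgb1a1 had at most 1 count in a library and Scgb3a2 and Cyp2f2 had 0 in all of them. Of 10 club cell genes listed, only Aldh1a1 and Foxa2 passed the filter. The list summed to 716 to 739 CPM in untreated and 283 to 295 in treated NC cells, and to 491 to 523 in untreated and 222 to 242 in treated knockdown cells, and its part in the proliferin values was not tested. The 2 tested genes did not always move alike. At an adjusted p of 0.05 in edgeR, 1 rose and 1 fell after knockdown with TGF-β1, and 0 rose and 1 fell without it. After TGF-β1, 2 fell in NC and in knockdown cells. In these comparisons 1.55%, 3.44%, 15.3% and 16.1% of all genes tested passed. Of 7 epithelial genes listed, 4 passed the filter. The epithelial adhesion gene Epcam had at most 1 count, whereas the keratin gene Krt18 had group means of 446 to 1156 CPM. The epithelial list summed to 684 to 708 CPM in untreated and 1408 to 1886 in treated NC cells. In knockdown cells it summed to 548 to 703 in untreated and 1657 to 1733 in treated libraries. After TGF-β1, 3 of its genes rose and 0 fell in NC and in knockdown cells, and 0 rose and 1 fell after knockdown with and without TGF-β1.

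In the mouse reference genome GRCm38, Prl2c3 lies on chromosome 13 at chr13:12790816-12800079 on the minus strand and Prl2c2 at chr13:12996125-13005383 on the same strand, with 196.0 kb between them. Prl2c5 follows 177.3 kb further on, at chr13:13182715-13191923 on the plus strand. Their relative Prl2c1, which is not counted among the 4 genes, lies apart at chr13:27849342-27857788. All of these are protein-coding genes with transcripts of 5 exons and 842 to 857 bases, and no other annotated gene overlaps them. Prl2c4 has no entry under that symbol in the GENCODE annotation used here, and RefSeq lists the name as a synonym of Prl2c3, so that the row counted as Prl2c4 cannot be placed.

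The library kit reads the 3′ ends of messages, and the final coding bases are shown to compare what such reads can tell apart. Each run of 75 bases ends with the stop codon and lies in 1 exon, on GRCm38, written 5′ to 3′ on the gene's strand, and the capital marks the base that differs from Prl2c2.
Prl2c2 (chr13:12996235-12996309, minus strand): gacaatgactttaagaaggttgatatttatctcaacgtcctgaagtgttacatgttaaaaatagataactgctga
Prl2c3 (chr13:12790931-12791005, minus strand): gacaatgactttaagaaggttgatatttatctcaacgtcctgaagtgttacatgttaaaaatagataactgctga
Prl2c5 (chr13:13191741-13191815, plus strand): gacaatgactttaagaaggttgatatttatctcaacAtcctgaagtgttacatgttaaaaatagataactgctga
Prl2c1 (chr13:27857609-27857683, plus strand): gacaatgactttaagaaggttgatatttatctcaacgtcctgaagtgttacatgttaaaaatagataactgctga
Prl2c2, Prl2c3 and Prl2c1 were identical over these bases, and Prl2c5 differed at 1 base.

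Over whole transcripts, Prl2c2 and Prl2c3 were 97.8% identical. Reads were 75 bases long, and every 75-base window of Prl2c2 was looked for in the other transcripts. Of 768 such windows 547 occur unchanged in Prl2c3, and in the last 300 bases all 226 do. In those last 300 bases, 0 of the 226 windows of Prl2c2 occur in Prl2c5, although the whole transcripts are 94.5% identical. A perfect read from the last 300 bases can thus separate Prl2c2 from Prl2c5 but not from Prl2c3. Prl2c1 shares 25 of the 226 windows of Prl2c2 and 69 of those of Prl2c5. The pseudogene Gm7040, 129.0 kb from Prl2c5, also holds such windows of Prl2c2, Prl2c3 and Prl2c5, and is not a row of the count files. Because alignments to several places were counted, 1 read may have been counted for Prl2c2, Prl2c3 and Prl2c4, and how often this happened is not recorded in the counts.

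**Figure D1:**
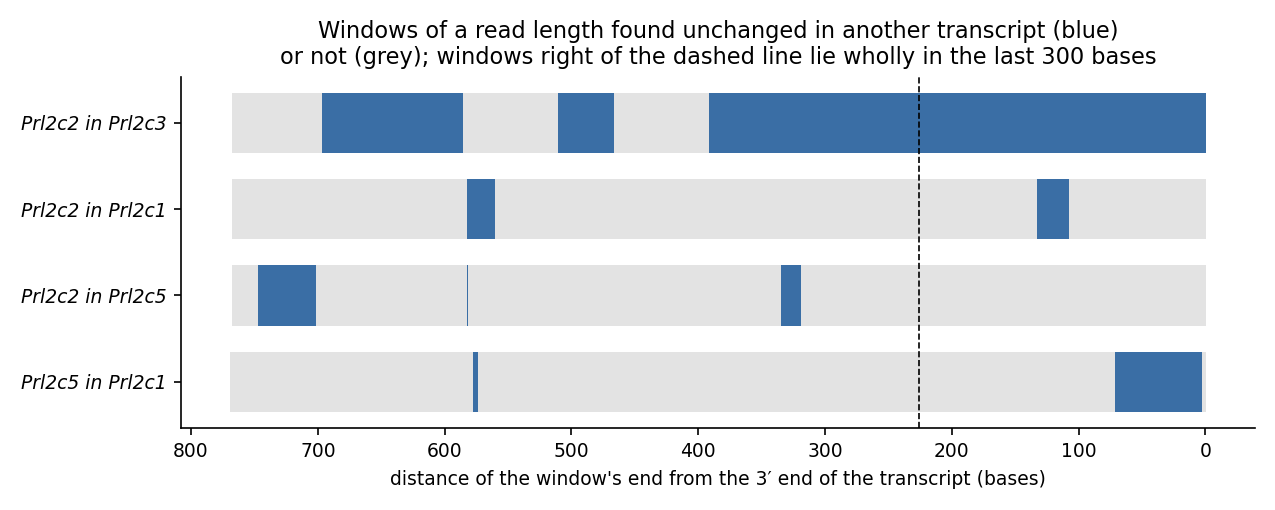
The 75-base windows of one transcript (first name in each row) that occur unchanged in another (second name) are in blue and the others in grey, placed by the distance of the window's end from the 3′ end in bases. To the right of the dashed line, Prl2c2 is wholly blue against Prl2c3 (226 of 226 windows) and wholly grey against Prl2c5 (0 of 226).

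The 3 abundant genes had the same order of groups. Prl2c2, Prl2c3 and Prl2c4 were lowest in NC cells, about 2 times higher after either TGF-β1 or Pdcd5 knockdown, and 3.75 to 4.54 times the NC level after both. Prl2c5 stayed at a few counts in every group.

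Prl2c2 had 5.40, 3.86 and 4.38 CPM in the NC libraries and 7.80, 11.2 and 8.85 CPM in NC + TGF-β1. It had 12.84, 9.76 and 10.3 CPM in siPdcd5 and 23.9, 16.9 and 21.0 CPM in siPdcd5 + TGF-β1. The means were 4.54 ± 0.785, 9.29 ± 1.75, 10.97 ± 1.65 and 20.6 ± 3.52 CPM in this order of groups (SD, n = 3). All NC libraries were below all others and all siPdcd5 + TGF-β1 libraries above all others, whereas the groups with only 1 of the treatments overlapped each other.

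Prl2c3 had 5.17, 4.90 and 3.92 CPM in NC and 5.73, 10.9 and 8.11 CPM in NC + TGF-β1. Its values were 13.8, 7.17 and 7.79 CPM in siPdcd5 and 17.2, 15.6 and 19.7 CPM in siPdcd5 + TGF-β1. The group means were 4.66 ± 0.660, 8.25 ± 2.59, 9.59 ± 3.66 and 17.5 ± 2.07 CPM (SD, n = 3). The siPdcd5 library with replicate number 1 stood highest in its group, at 13.8 CPM, and still lay below the lowest siPdcd5 + TGF-β1 library.

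Prl2c4 had 3.95, 4.15 and 3.22 CPM in NC and 5.10, 9.49 and 6.43 CPM in NC + TGF-β1. It reached 12.03, 4.96 and 6.63 CPM in siPdcd5 and 14.8, 13.04 and 16.2 CPM in siPdcd5 + TGF-β1. The means were 3.78 ± 0.489, 7.01 ± 2.25, 7.87 ± 3.69 and 14.7 ± 1.58 CPM (SD, n = 3). The order of groups was that of Prl2c3, with the same siPdcd5 library highest in its group.

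Prl2c5 had 0, 3 and 2 counts in NC and 6, 1 and 1 counts in NC + TGF-β1. It had 1, 5 and 3 counts in siPdcd5 and 3, 0 and 6 counts in siPdcd5 + TGF-β1. Pooled over the 3 libraries of a group, its untreated level was 0.126 CPM in NC cells (exact Poisson 95% interval 0.0409 to 0.294) and 0.191 CPM in knockdown cells (0.0872 to 0.362). With TGF-β1 it was 0.202 CPM in NC cells (0.0872 to 0.398) and 0.211 CPM in knockdown cells (0.0963 to 0.400). These intervals cover counting error only and overlap in all groups, and a difference was not detectable at this depth. In all, 31 counts fell on Prl2c5, against 1948 on Prl2c2, 1703 on Prl2c3 and 1415 on Prl2c4.

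**Figure D2:**
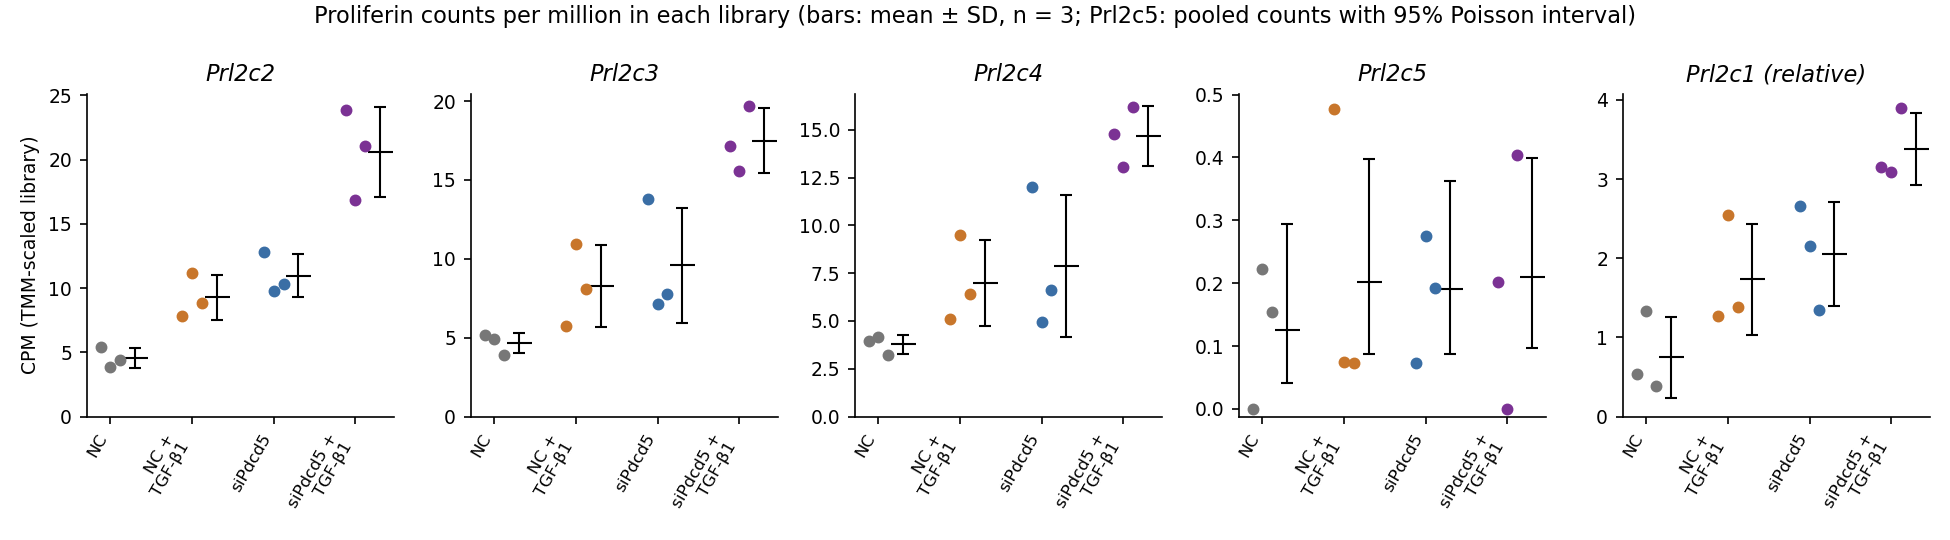
CPM of each proliferin gene and of the relative Prl2c1 in the 12 libraries, by group, with each panel on its own axis. Black bars give the mean ± SD of 3 libraries, and for Prl2c5 the pooled level with its exact Poisson interval. For Prl2c2, Prl2c3 and Prl2c4 the siPdcd5 + TGF-β1 libraries lie above all others, and the Prl2c5 panel ends at 0.5 CPM.

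Added together, the 4 genes had 14.5, 13.1 and 11.7 CPM in NC and 19.1, 31.7 and 23.5 CPM in NC + TGF-β1. The sum was 38.7, 22.2 and 24.9 CPM in siPdcd5 and 56.0, 45.5 and 57.3 CPM in siPdcd5 + TGF-β1. Means were 13.1 ± 1.43, 24.8 ± 6.39, 28.6 ± 8.89 and 53.0 ± 6.48 CPM (SD, n = 3). The middle groups of this order, NC + TGF-β1 and siPdcd5, overlapped each other and no other group, as 1 siPdcd5 library lay above the highest NC + TGF-β1 library and 1 NC + TGF-β1 library below the lowest siPdcd5 library. A read that was counted for several copies enters this sum more than once. In these bulk libraries, more cells that make proliferin and more proliferin RNA per cell cannot be told apart.

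After Pdcd5 knockdown in the presence of TGF-β1, the fitted log2 fold change of the sum was 1.10 (SE 0.21), which is 2.14-fold. Prl2c2 gave 1.15 (SE 0.18), Prl2c3 1.08 (SE 0.25) and Prl2c4 1.06 (SE 0.28). For each of the 3 genes all 3 knockdown libraries were higher than all 3 NC libraries, as was so for 8.84% of the 12425 genes tested, while 1.55% of the genes passed an adjusted p of 0.05 in either direction in this comparison. These shares are given as background only, since the genes were chosen with this comparison known.

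Without TGF-β1, knockdown gave a log2 fold change of 1.12 (SE 0.22) for the sum, or 2.17-fold. Prl2c2 gave 1.27 (SE 0.20), Prl2c3 1.03 (SE 0.27) and Prl2c4 1.04 (SE 0.31), again with no overlap of the groups. Here 10.6% of all genes tested were higher with no overlap and 3.44% passed the threshold. When the siPdcd5 library with replicate number 1 was left out, the log2 fold change of the sum was 0.84. Without that library Prl2c2 gave 1.14, Prl2c3 0.68 and Prl2c4 0.61.

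TGF-β1 gave a log2 fold change of 0.92 (SE 0.22) for the sum in NC cells, or 1.89-fold. The values were 1.03 (SE 0.20) for Prl2c2, 0.83 (SE 0.28) for Prl2c3 and 0.89 (SE 0.31) for Prl2c4, without overlap. TGF-β1 moved many more genes than knockdown did, as 15.3% of all genes passed the threshold and 15.3% were higher with no overlap. The NC + TGF-β1 library with replicate number 2 was the highest of its group for all 3 genes, and without it the value of the sum was 0.70. Prl2c2 then gave 0.87, Prl2c3 0.57 and Prl2c4 0.61.

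In knockdown cells, TGF-β1 gave a log2 fold change of 0.89 (SE 0.20) for the sum, or 1.86-fold. Prl2c2 gave 0.92 (SE 0.18), Prl2c3 0.88 (SE 0.25) and Prl2c4 0.91 (SE 0.28), without overlap, and 16.1% of all genes passed the threshold while 17.9% were higher with no overlap. The difference between this response and that in NC cells was −0.02 (SE 0.30) on the log2 scale for the sum. It was −0.12 (SE 0.27) for Prl2c2, 0.05 (SE 0.38) for Prl2c3 and 0.02 (SE 0.43) for Prl2c4. For the sum, 1 standard error to either side spans ratios of the responses from 0.802 to 1.21. The simple comparisons share libraries with each other, so that their values are not independent.

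Across all genes, the test of the difference between the TGF-β1 responses called 0 genes (0%) with edgeR at an adjusted p of 0.05, and the smallest adjusted p was 0.213. The unadjusted p was under 0.05 for 638 of the 12425 genes tested, which is near the share that this threshold gives where no gene differs. Limma-trend after quantile normalization also called 0 genes, and DESeq2 called 15.

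**Figure D3:**
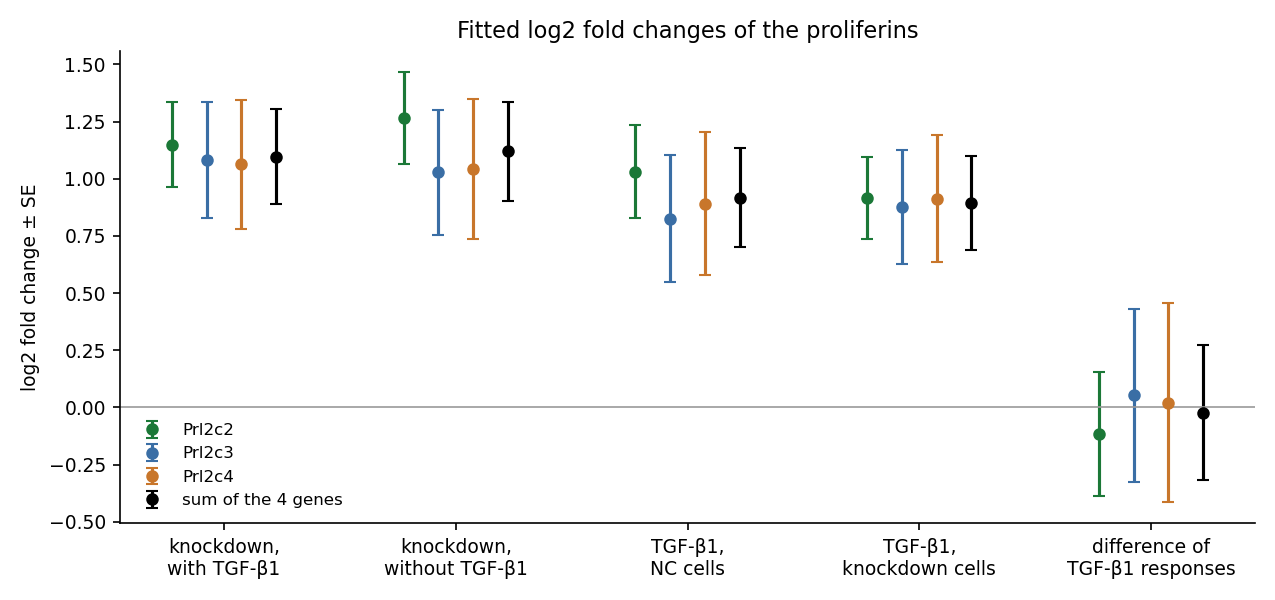
Fitted log2 fold changes with their standard errors for Prl2c2, Prl2c3, Prl2c4 and the sum of the 4 genes in the 4 comparisons and in the difference of TGF-β1 responses. All values of the 4 comparisons lie between 0.83 and 1.27, and the differences of the responses lie near 0.

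The proportions of the abundant copies varied between libraries. Per library, Prl2c3 had 0.719 to 1.27 times the counts of Prl2c2 (median 0.920) and Prl2c4 had 0.508 to 1.08 times (median 0.735). The ratio of Prl2c4 to Prl2c3 ranged from 0.692 to 0.889 (median 0.843), and Prl2c4 was below Prl2c3 in 12 of 12 libraries. Prl2c3 was below Prl2c2 in 10 of 12 libraries. Of the summed counts, Prl2c2 took 29.4% to 44.0%, Prl2c3 30.0% to 37.3%, Prl2c4 22.4% to 31.6% and Prl2c5 0 to 2.5%. Over the 12 libraries the log2 CPM of Prl2c2 had a Pearson r of 0.956 with Prl2c3 and of 0.941 with Prl2c4. These correlations describe 4 groups that differ in level and copies that may share the same reads. Since reads may be shared, and since no transcript could be assigned to Prl2c4, these proportions are those of the counts and not of the messages.

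**Figure D4:**
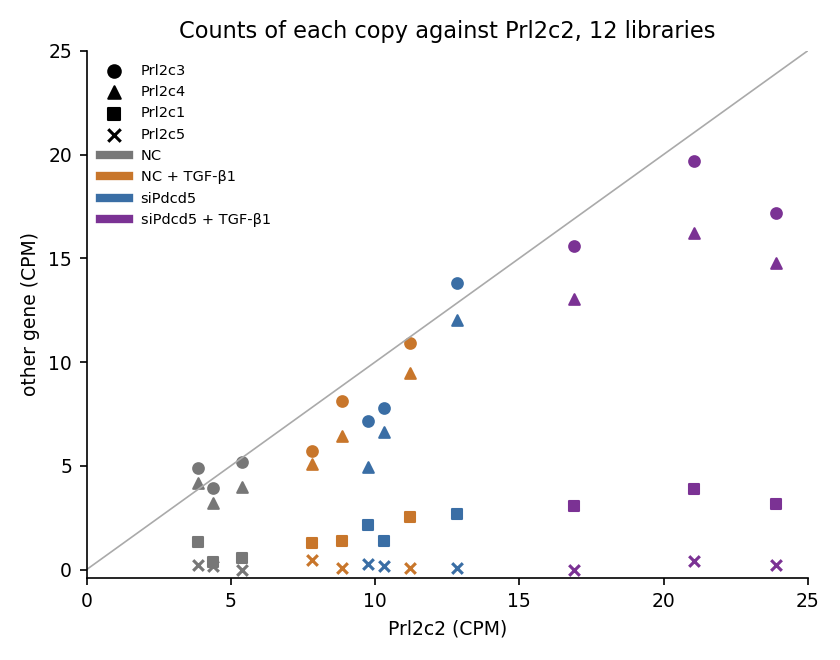
CPM of Prl2c3, Prl2c4, Prl2c1 and Prl2c5 (symbols) against that of Prl2c2 in the 12 libraries, coloured by group, with the line of equal levels in grey. Prl2c3 and Prl2c4 follow Prl2c2 from NC to siPdcd5 + TGF-β1, Prl2c1 lies at a much lower level, and Prl2c5 stays close to 0.

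The promoter regions of Prl2c3 and Prl2c5 are shown because the counts of these rows differ, with the limit that reads of Prl2c2 may be among those of Prl2c3. They come from RefSeq on GRCm38.p6, reach from 250 bases before to 50 bases after the start, and were found for 2 of the 4 genes. They are written 5′ to 3′ on the gene's strand, with the positions that differ between them in capitals.
Prl2c3 (chr13:12800030-12800329, minus strand): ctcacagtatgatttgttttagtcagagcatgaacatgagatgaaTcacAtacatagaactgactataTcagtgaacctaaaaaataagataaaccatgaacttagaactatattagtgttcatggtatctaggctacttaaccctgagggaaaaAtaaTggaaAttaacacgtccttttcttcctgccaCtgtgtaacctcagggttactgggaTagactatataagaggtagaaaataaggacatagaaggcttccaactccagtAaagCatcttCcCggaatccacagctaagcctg
Prl2c5 (chr13:13182466-13182765, plus strand): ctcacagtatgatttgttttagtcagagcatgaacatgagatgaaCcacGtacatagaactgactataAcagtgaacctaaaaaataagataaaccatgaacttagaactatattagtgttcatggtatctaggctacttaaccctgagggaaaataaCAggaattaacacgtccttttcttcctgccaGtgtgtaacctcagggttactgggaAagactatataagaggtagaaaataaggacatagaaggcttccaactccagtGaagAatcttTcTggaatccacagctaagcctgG
The aligned regions were 95.4% identical, with 10 substituted positions and 4 gap positions.

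A few short motifs were looked for on both strands of these regions. The AP-1 motif TGANTCA occurs 1 time in Prl2c3, as TGAATCA with its first base 209 bases before the start, and 0 times in Prl2c5, and 7.81% of 32851 promoter regions of the same length hold it. The TATA box TATATAA occurs 1 time in each, 30 and 31 bases before the start, and in 3.24% of all regions. The GATA motif AGATAA occurs 1 time in each, 163 bases before the start, and in 11.2% of all regions. The glucocorticoid receptor half-site AGAACA and the SMAD motif GTCTAGAC were in neither region, and are held by 19.0% and 0.213% of all regions. A match of letters is not a binding site, and the absence of these letters says nothing of the factors.

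The rest of the prolactin family was at or near 0 in these cells. Of 24 other family genes, 12 had 0 counts in all libraries, 20 had at most 3 counts in any library, and only Prl2c1 passed the filter. Prl2c1 had 7, 18 and 5 counts in NC and 16, 34 and 19 in NC + TGF-β1. It had 36, 39 and 21 counts in siPdcd5 and 47, 40 and 58 in siPdcd5 + TGF-β1. Its means of 0.750 ± 0.512, 1.73 ± 0.701, 2.05 ± 0.658 and 3.38 ± 0.451 CPM (SD, n = 3) followed the order of the proliferins, and its counts were 0.0877 to 0.346 times those of Prl2c2.

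Prl2c1 did not pass the threshold in edgeR's quasi-likelihood test in any comparison. Its log2 fold changes were 0.96 (SE 0.38, adjusted p = 0.277) after knockdown with TGF-β1 and 1.43 (SE 0.44, adjusted p = 0.107) without it. TGF-β1 gave 1.19 (SE 0.46, adjusted p = 0.102) in NC cells, where the groups overlapped, and 0.72 (SE 0.37, adjusted p = 0.217) in knockdown cells. The unadjusted p was under 0.05 in all of these but the last, and DESeq2 called Prl2c1 after knockdown without TGF-β1 only. Since Prl2c1 shares windows with Prl2c2 and Prl2c3, part of its counts may be their reads, which was not tested. Prl3d3, a placental lactogen gene, reached 12 counts in 1 library and Prl itself at most 2.

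Most listed genes of the trophoblast, whose giant cells are a known source of proliferins, were at or near 0. The list was not limited to genes of giant cells. Of 14 such genes, 3 had 0 counts everywhere, 8 had at most 3 counts in any library and only Gata3, a GATA factor that many epithelial cells also express, passed the filter. The summed level of the list was 14.3 to 18.0 CPM in untreated and 10.6 to 14.8 in treated NC cells. In knockdown cells it was 6.94 to 11.4 in untreated and 8.19 to 12.2 in treated libraries. The sum was thus highest in untreated NC cells, where the proliferins were lowest, with overlap between untreated and treated NC cells. Gata3 made up most of the sum, with group means of 15.1, 12.7, 8.75 and 9.94 CPM. Its log2 fold change after knockdown without TGF-β1 was −0.78 (SE 0.21, edgeR adjusted p = 0.0649), a fall that DESeq2 called.

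Fibroblast markers were also followed, since proliferins are known from fibroblasts. Of 8 such genes 6 passed the filter, Lum had at most 1 count, and the list summed to 3761 to 4005 CPM in untreated and 7447 to 8065 in treated NC cells, and to 2562 to 3137 in untreated and 5613 to 5972 in treated knockdown cells. The sum was thus higher with TGF-β1, as the proliferins were, but lower with knockdown. Col1a1, a collagen chain, made up most of it. Within the list, 4 genes rose and 1 fell after TGF-β1 in NC cells, 3 rose and 1 fell in knockdown cells, 1 rose and 1 fell after knockdown with TGF-β1, and 2 rose and 2 fell without it. Over all genes the shares called in these comparisons were 15.3%, 16.1%, 1.55% and 3.44%. Among the latter genes, Col1a1 fell by a log2 fold change of −0.47 (SE 0.097, edgeR adjusted p = 0.0148) and Col3a1 by −0.52 (SE 0.091, edgeR adjusted p = 0.00558), whereas Col1a2 rose by a log2 fold change of 1.74 (SE 0.22, edgeR adjusted p = 6.3e-04) and Dcn, a small proteoglycan, by 0.59 (SE 0.092, edgeR adjusted p = 0.00234). The part of these markers in the proliferin values was not tested. Markers of endothelial cells summed to at most 2.48 CPM in any library.

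Proliferins belong to the family of prolactin and growth hormone, whose receptors signal through JAK kinases and STAT factors. The prolactin receptor gene Prlr had at most 1 count in any library. The growth hormone receptor gene Ghr was present at 25.6 ± 1.25, 28.9 ± 3.35, 14.6 ± 2.17 and 16.6 ± 1.48 CPM in the order of groups (SD, n = 3). It fell after knockdown with a log2 fold change of −0.80 (SE 0.13, edgeR adjusted p = 0.00653) in the presence of TGF-β1 and −0.81 (SE 0.13, edgeR adjusted p = 0.00326) in its absence. The first of these calls was lost when only the 6 libraries compared were fitted (adjusted p = 0.0556).

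Of the 13 receptor and JAK-STAT genes, 12 were tested. After knockdown 0 rose and 1 fell, with and without TGF-β1, and that gene was Ghr, where 1.55% and 3.44% of all genes were called. After TGF-β1, 1 rose and 1 fell in NC cells, and 1 rose and 2 fell in knockdown cells, where the shares over all genes were 15.3% and 16.1%. The medians of the list were −0.06, 0.07, −0.02 and −0.04 in the order knockdown with and without TGF-β1 and TGF-β1 in NC and knockdown cells, beside −0.02, 0.02, 0.00 and −0.03 over all genes tested.

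Socs3, an inhibitor of cytokine signalling, fell after TGF-β1 by a log2 fold change of −0.93 (SE 0.19, edgeR adjusted p = 0.00335) in NC cells and −1.29 (SE 0.19, edgeR adjusted p = 2.4e-04) in knockdown cells. Cish, another inhibitor of the same family and a known target of STAT5, rose by 0.91 (SE 0.24, edgeR adjusted p = 0.0181) and 0.93 (SE 0.24, edgeR adjusted p = 0.0152). Stat5a, which carries prolactin and growth hormone signals, fell after TGF-β1 in knockdown cells by −0.73 (SE 0.22, edgeR adjusted p = 0.0325), and its value in NC cells was −0.34, a difference that did not pass the test.

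The calls of Cish and Stat5a were lost when some single libraries were left out. In NC cells the adjusted p of Cish was 0.0627 without NC replicate 1, 0.0810 without NC replicate 3 and 0.0521 without NC + TGF-β1 replicate 2. In knockdown cells it was 0.0700 and 0.0696 without siPdcd5 replicates 2 and 3 and 0.0569 without siPdcd5 + TGF-β1 replicate 2. For Stat5a it was 0.0507 without NC replicate 3, 0.157 without siPdcd5 replicate 1, and 0.0721, 0.0857 and 0.113 without siPdcd5 + TGF-β1 replicates 1, 2 and 3.

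The mannose 6-phosphate receptor that binds proliferins was expressed in all groups. Igf2r, which encodes it, had group means of 124 ± 2.36, 129 ± 28.1, 152 ± 11.2 and 124 ± 13.5 CPM in the order of groups (SD, n = 3). All 5 genes of the list were tested, which also holds the second receptor gene M6pr and the genes Gnptab, Gnptg and Nagpa of the enzymes that attach and uncover the mannose 6-phosphate tag. In edgeR's test 0 of the 5 were called in any comparison, and the unadjusted p was under 0.05 for 0 genes after knockdown with TGF-β1, 1 without it, 0 after TGF-β1 in NC cells and 2 in knockdown cells. The same held for 1711, 1949, 3368 and 3588 of all 12425 genes tested, in this order of comparisons. Over all genes 1.55% and 3.44% were called after knockdown with and without TGF-β1 and 15.3% and 16.1% after TGF-β1, so that the counts of 0 after knockdown are near the background. Limma-trend called 0, and DESeq2 called Gnptab, which was lower after TGF-β1 in knockdown cells (edgeR log2 fold change −0.38, SE 0.12, adjusted p = 0.0536).

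Proliferin genes are known targets of AP-1, a dimer of Jun and Fos proteins, and of the glucocorticoid receptor. All 8 genes of this list were tested, and after TGF-β1 3 rose and 1 fell, in NC and in knockdown cells, where 15.3% and 16.1% of all genes were called. Junb rose by a log2 fold change of 1.17 (SE 0.092, edgeR adjusted p = 6.4e-07) in NC cells and 1.04 (SE 0.092, edgeR adjusted p = 2.1e-06) in knockdown cells. Jun rose by 0.66 (SE 0.095, edgeR adjusted p = 1.9e-04) and 0.79 (SE 0.095, edgeR adjusted p = 3.8e-05). Fosl2, a Fos family member, rose by 0.44 (SE 0.093, edgeR adjusted p = 0.00460) and 0.59 (SE 0.093, edgeR adjusted p = 4.4e-04). Nr3c1, the glucocorticoid receptor gene, fell by −0.57 (SE 0.13, edgeR adjusted p = 0.00576) and −0.59 (SE 0.13, edgeR adjusted p = 0.00468).

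After knockdown, 0 of these 8 genes were called by edgeR with or without TGF-β1, where 1.55% and 3.44% of all genes were called, so that a count of 0 is near the background, and the unadjusted p was under 0.05 for 0 of them. Such a p was found for 1711 and 1949 of the 12425 genes tested, with and without TGF-β1. DESeq2 and limma-trend also called 0, with an unadjusted p under 0.05 in limma-trend for 1 gene after knockdown without TGF-β1. The log2 fold changes of Junb after knockdown were −0.08 (SE 0.092) with TGF-β1 and 0.05 (SE 0.092) without, and those of Jun were −0.03 (SE 0.095) and −0.16 (SE 0.095). Fosl1, another Fos family member, was not called, but its siPdcd5 libraries (4.96 to 6.72 CPM) all lay above its NC libraries (3.86 to 4.15 CPM). Of all genes tested, 10.6% were higher with no overlap in this comparison. With TGF-β1, the Fosl1 values of knockdown libraries (5.85 to 7.99 CPM) overlapped those of NC libraries (4.62 to 8.82 CPM). The medians of the list were −0.05 and −0.12 after knockdown and 0.39 and 0.32 after TGF-β1, the latter in NC and knockdown cells.

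**Figure D5:**
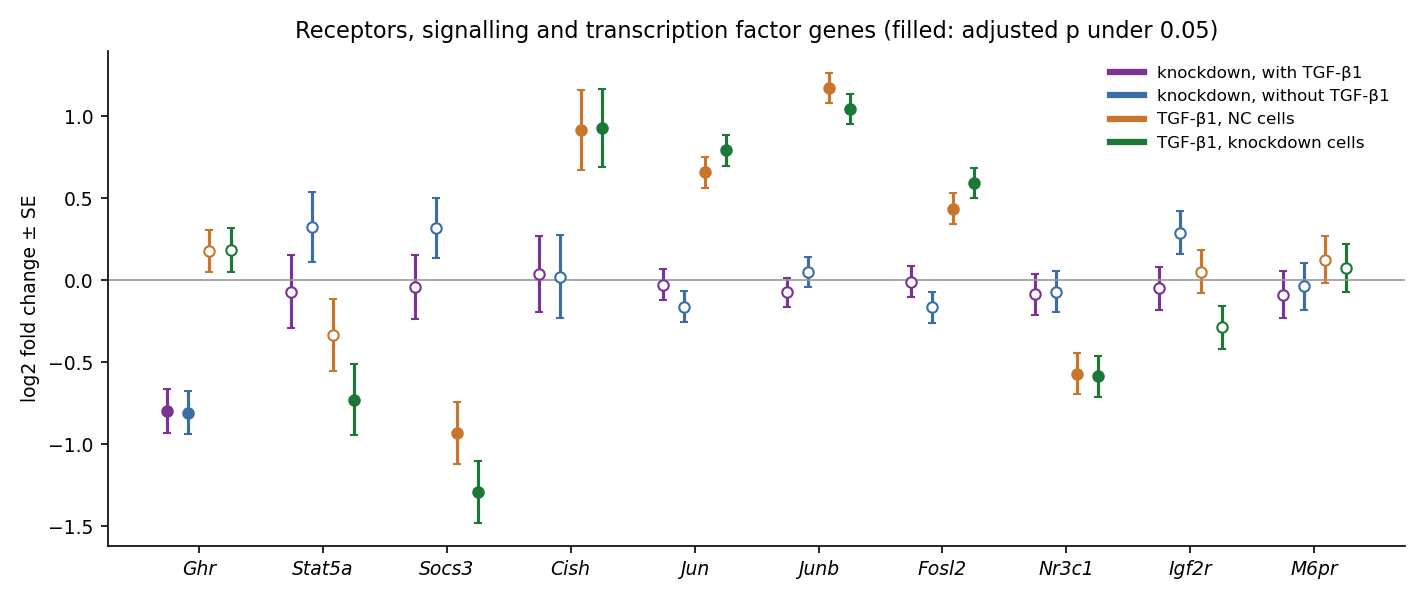
Log2 fold changes with standard errors of receptor, JAK-STAT, AP-1, glucocorticoid receptor and mannose 6-phosphate receptor genes in the 4 comparisons (colours), filled where the adjusted p of edgeR's test was under 0.05. Ghr is filled only after knockdown, and Junb, Jun, Fosl2 and Nr3c1 only after TGF-β1.

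No gene tested next to the proliferins on chromosome 13 passed the threshold. Within 500 kb of a proliferin gene, 9 genes were in the count files and 7 were tested, namely Heatr1, Lgals8, Ero1lb, Gpr137b-ps, Gpr137b, Nid1 and Lyst. EdgeR called 0 of the 7 in any comparison, with an unadjusted p under 0.05 for 0 genes after either knockdown comparison, 2 after TGF-β1 in NC cells and 4 in knockdown cells. Of all 12425 genes tested, 1711 and 1949 had such a p after knockdown with and without TGF-β1. After TGF-β1 in NC and knockdown cells 3368 and 3588 had it. With 1.55% and 3.44% of all genes called after knockdown and 15.3% and 16.1% after TGF-β1, the counts of 0 after knockdown are near the background. Limma-trend called 0, and DESeq2 called Gpr137b, which was higher after TGF-β1 in knockdown cells (edgeR log2 fold change 0.33, SE 0.12, adjusted p = 0.0684). The median log2 fold changes of the 7 genes were 0.07 and 0.06 after knockdown with and without TGF-β1, and 0.25 and 0.32 after TGF-β1 in NC and knockdown cells. Over all genes tested the medians were −0.02, 0.02, 0.00 and −0.03 in the same order, so that the neighbours lay above them after TGF-β1. Gpr137b and the pseudogene Gpr137b-ps are copies whose reads may also be shared.

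Over the 12 libraries, the genes whose log2 CPM followed the summed proliferins most closely were ranked among 9126 genes of sufficient level. The highest was Cxcl1, which encodes a chemokine that attracts neutrophils, with a Pearson r of 0.941. Its group means were 9.26 ± 2.14, 17.1 ± 5.07, 15.5 ± 3.21 and 25.1 ± 2.22 CPM in the order of groups (SD, n = 3). Next came Nudt4, a phosphohydrolase gene, with r = 0.929, Frrs1 with 0.915, Timm8a1, a mitochondrial import gene, with 0.911 and Gm14005 with 0.906. Timm8a1 went from 15.5 ± 2.62 CPM in NC to 35.2 ± 1.38 CPM in siPdcd5 + TGF-β1, a smaller ratio than that of the proliferins.

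Genes most opposed to the proliferins were Ktn1, a kinesin-binding protein gene, with r = −0.961, and Csgalnact1, an enzyme of chondroitin sulfate synthesis, with −0.956. Ktn1 went from 724 ± 7.91 CPM in untreated NC cells to 465 ± 17.9 in treated knockdown cells, with 550 ± 51.4 and 560 ± 31.8 CPM in the groups between them (SD, n = 3). These coefficients describe likeness of pattern over libraries of 4 groups and carry no test.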

How the data were processed

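RNA of 12 libraries of C22 cells was measured with the QuantSeq 3′ mRNA-seq kit as single-end reads of 75 bases. The authors aligned reads with Bowtie2 to mm10, counted unique and multiple alignments with Bedtools, and deposited raw read counts per gene symbol. The annotation and use of strand are not given in the sources used here, and the quantile normalization named in the paper is not in these counts. From the counts, R 4.3.3 and edgeR 4.0.16 gave TMM-scaled CPM and, after the default filter over all libraries, quasi-likelihood tests in a model of 4 groups with Benjamini-Hochberg adjustment over 12425 genes. The sum of the 4 genes replaced them as 1 row in a separate fit. Standard errors of fold changes were derived as the absolute log2 fold change over the square root of the F statistic of the quasi-likelihood test. A prior count of 2 was used for log2 CPM. The test was tested on simulated counts.

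The 4 genes and the gene lists were chosen with earlier results of these data known. Genes were named if they belonged to the 4 genes, to a list and passed the threshold (up to 4 a list by smallest p) or had a level of interest there, lay within 500 kb of a proliferin gene, or were among the 5 highest and 3 lowest correlations with the sum at a mean log2 CPM of at least 3. One gene under this rule is not reported here. Marker genes, Fosl1, Gnptab and Prl3d3 were named after their values were seen. Alternatives were upper-quartile and DESeq2 size factors, quantile normalization with limma-trend (limma 3.58.1), DESeq2 1.42.0, no filter, a minimum of 10 counts in each library, fits of the compared groups alone, a replicate block, each library left out, Spearman rho, a prior count of 0.5 and raw totals. Replicate numbers come from the labels. Total counts were 12809857 to 17714828 per library. Molecular identifiers are not named in the sources used here, so that duplicate reads may be among the counts. The Poisson intervals take each read as separate and cover counting error only. Positions and transcripts come from GENCODE on GRCm38 and promoters from RefSeq on GRCm38.p6.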

Additional observations from a re-analysis of the deposited data

How the results depend on the processing

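The log2 fold changes of the summed proliferins moved by less than the spread between replicates (the pooled SD of log2 CPM) in all 99 alternatives, and those of Prl2c2, Prl2c3 and Prl2c4 in 296 of 297. The exception was the difference of TGF-β1 responses of Prl2c4, which was 0.02 with all libraries and 0.47 without siPdcd5 replicate 1. The spread includes the library left out, so that leaving out 1 library can hardly move a simple comparison by more than it. For those refits the tally is therefore no measure of stability, and the ranges below show what each library contributed. Prl2c5 passed the filter only where no filter was set and has no fitted value to compare. Leaving out 1 library in turn, the sum ranged from 0.94 to 1.31 after knockdown with TGF-β1, 0.84 to 1.28 without it, 0.70 to 1.07 after TGF-β1 in NC cells and 0.74 to 1.18 in knockdown cells. The count of genes called over all genes depended more on the processing. After knockdown with TGF-β1 it was 192, against 459 with DESeq2 and 44 with only the libraries compared, and it ranged from 73 to 322 with 1 library left out. After knockdown without TGF-β1 it was 427, against 714 with DESeq2, and 167 to 667 with 1 library left out. For the difference of responses it was 0, against 15 with DESeq2 and 0 to 2 with 1 library left out, the 2 without NC + TGF-β1 replicate 2. The causes were not tested. Quantile normalization with limma-trend called 51 genes higher and 110 lower after knockdown with TGF-β1, against 41 and 151. Spearman's rho in place of Pearson's r left Timm8a1 (0.832) and Gm14005 (0.888) outside the 5 highest and none of the 3 lowest in place, among them Ktn1 (−0.902) and Csgalnact1 (−0.937). Of 300 refits of the calls of Ghr, Socs3, Cish, Stat5a, Junb, Jun, Fosl2 and Nr3c1, 13 lost the call and none changed direction. Among the calls lost was that of Stat5a with limma-trend (adjusted p = 0.0550). The calls of marker genes, such as Col1a1, Col3a1, Col1a2 and Dcn, were not followed in these refits.

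Under the replicate block, 107 genes passed the threshold after knockdown with TGF-β1 and 301 without it, 1687 and 1731 after TGF-β1 in NC and knockdown cells, and 0 for the difference. The correlations of same-numbered libraries' deviations were −0.32 to 0.17, so that the numbers do not show a pairing. None of the calls refitted above was lost under the block.

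Depth limits the account of Prl2c5, since 3 counts correspond to 0.165 to 0.239 CPM, and the shared 3′ ends limit any statement about Prl2c2, Prl2c3 and Prl2c4 apart.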
